A study of Oryzias latipes with 84 samples.

Results

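The genes described here are 100 genes of the medaka pituitary whose levels were higher in males of 57 and 70 days post fertilization (dpf) than in younger and older males. They were selected on the values of 16 males in 4 labelled ages (38, 57, 70 and 134 dpf, 4 fish each), in CPM, the count of a gene per 1000000 counts of its library. For each gene the median of log2(CPM + 1) was taken per age, and the score was the lower of the 57 and 70 dpf medians minus the higher of the 38 and 134 dpf medians, so that a gene scored high only when both middle ages stood above both outer ages. Of 24364 entries in the count table, 24350 were Ensembl genes outside the 13 genes whose models the authors had adjusted, 12036 of these reached a median of at least 5 CPM at both 57 and 70 dpf, and 1284 of those had a score above 0. The 100 highest scores are called the members below, and the 12036 genes are called the genes at the level minimum.

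The libraries are bulk RNA-seq of single pituitaries from 84 Japanese medaka (Oryzias latipes) of the d-rR lhb:GFP line, in which the promoter of lhb, the gene of the luteinizing hormone beta subunit, drives a green fluorescent protein. All fish carried this transgene and none was otherwise treated; they were raised at 28 °C in tanks of 10 fish of 1 age. The 68 females fell into 10 age groups, of 32 to 35 (4 fish), 37 to 39 (4), 44 to 49 (8), 53 to 59 (9), 64 to 74 (10), 79 to 92 (10), 96 to 111 (11), 131 to 179 (6), 249 to 277 (3) and 375 dpf (3). The males of 134 dpf are given by that label, while the methods text gives a younger age range for 3 of them. Below, males of 57 and 70 dpf and females of 53 to 74 dpf are called mid-course fish, those of 37 to 39 dpf juvenile and those of 131 dpf or older adult.

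The teleost pituitary holds separate endocrine cell types, each making mainly 1 hormone: prolactin, growth hormone, somatolactin, thyrotropin, the gonadotropins Lh and Fsh, and the pro-opiomelanocortin peptides of corticotropes and melanotropes. Puberty and growth change the numbers of these cells and the hormone each makes, and gonadotropes are known for their expansion as fish mature. A bulk library averages over all of these cells and over blood and supporting cells, and fewer cells of a type and less RNA per cell cannot be told apart in it.

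The members carry only Ensembl identifiers here. The paper paired none of the 100 with a symbol, and the reference table held an Ensembl identifier for 0 genes. Neither their names nor their roles are therefore given, and the 16 gene lists written by symbol (among them cell cycle, ribosomal protein, immediate early, circadian clock, glial and pituitary receptor genes) could not be matched to the members. The hormone genes are not among the members, since the rule left out the genes with adjusted models. Identifiers are printed for 6 members by a rule based on score and on the test in females, and 7 further members are named where a result turns on them and were chosen after their values were seen.

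The hormone genes marked the libraries as pituitary: the 8 hormone genes took 5.60% to 37.6% of the counts in the 16 males. Total counts in males ranged from 4832598 to 9348785. The share of hormone genes was lowest in medaka126 (38 dpf, 5.60%), medaka135 (70 dpf, 9.00%) and medaka125 (38 dpf, 12.9%), and was 22.6% or more in the other 13 males. CD74, a marker of antigen-presenting cells, was at 6436 CPM in medaka135 and at 1137 CPM in medaka125, against 256 to 567 CPM in the other 14 males. The summed level of the globin genes gb and hbbe2, markers of red blood cells, ranged from 866 to 78401 CPM at 38 dpf, from 2221 to 10756 CPM at 57 dpf, from 3081 to 5922 CPM at 70 dpf and from 2333 to 6463 CPM at 134 dpf. RNA integrity numbers were 9.3 to 9.6 at 38 dpf, 10 in all fish of 57 dpf, 9.6 to 10 at 70 dpf and 7.1 to 9.8 at 134 dpf, so that they were highest at the ages that were chosen to be high. The part of cell mixture and RNA quality in the male pattern was not tested.

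The male values chose the members, and they are given as a description with no test. The scores ran from 0.36 to 1.58 with a median of 0.46 on the log2 scale, so that the lower of the mid-course medians stood 1.29-fold to 2.99-fold above the higher outer median on the CPM + 1 scale, with a median of 1.37-fold. Only 2 members scored above 1 and 35 above 0.5. The choice has no gap at its edge: the 3 members just inside scored 0.367, 0.366 and 0.363, and the 3 genes just outside scored 0.363, 0.361 and 0.359. The lower mid-course median stood above the 38 dpf median by 0.56 (median over the members, 1.48-fold) and above the 134 dpf median by 0.52 (1.43-fold). The 57 dpf median was the higher of the mid-course medians in 48 members, and the 38 dpf median was the higher of the outer medians in 44. The levels were moderate: the lower mid-course median ran from 5.41 to 888 CPM with a median of 18.8 CPM, with 26 members under 10 CPM and 10 over 100 CPM.

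Averaged over the members, the level of log2(CPM + 1) was 3.75, 3.66, 4.75 and 3.93 in the 4 males of 38 dpf. It was 4.45, 4.55, 4.77 and 4.72 at 57 dpf. It was 4.62, 4.66, 4.40 and 4.81 at 70 dpf, and 3.75, 4.13, 4.11 and 4.06 at 134 dpf. All 8 mid-course males thus stood above the 4 adult males and above 3 of the 4 juvenile males, and 1 juvenile male, medaka127 at 4.75, stood among the mid-course fish. Over the genes at the level minimum, the same mean was 4.59 to 5.10 at 38 dpf and 4.60 to 4.95 at the other 3 ages, with overlapping ranges.

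**Figure D1:**
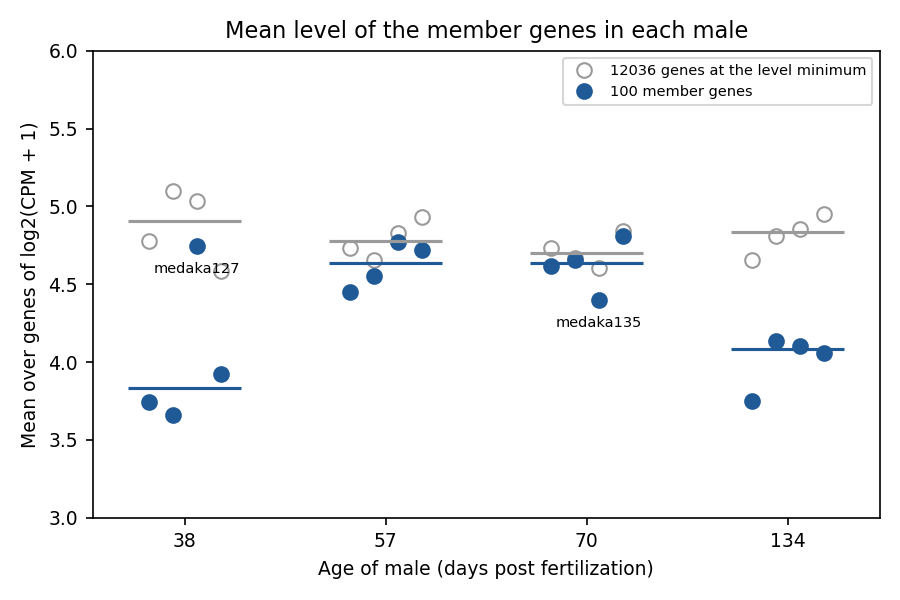
Mean of log2(CPM + 1) over the 100 members (filled) and over the 12036 genes at the level minimum (open) in each of 16 males by age in dpf; lines are medians of 4 fish. The members of 3 juvenile and 4 adult males lie between 3.66 and 4.13, and those of the mid-course males and of medaka127 between 4.40 and 4.81; these values chose the members.

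No single member separated the 8 mid-course males from all 8 others: the count was 0 of 100, and among the 12036 genes at the level minimum it was also 0 (0%). No member had all 8 mid-course males above all 4 juvenile males, as did 0.208% of the genes at the level minimum, and 1 had them above all 4 adult males (0.648%). That member, ENSORLG00000003731, was at 10.1, 17.3, 20.2 and 12.4 CPM at 57 dpf and at 15.7, 11.4, 10.9 and 15.9 CPM at 70 dpf. It was at 8.93, 9.21, 8.26 and 9.52 CPM at 134 dpf, and at 9.32, 10.6, 17.7 and 9.04 CPM at 38 dpf, where medaka127 was again the highest. The pattern is therefore one of medians over fish, with single fish that cross it.

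A juvenile and a mid-course male were most often the highest of the 16 males. The juvenile medaka127 had the highest value of all 16 males in 25 members, and the highest of the 4 juvenile males in 72 members, against 31.4% of the genes at the level minimum. Among the mid-course fish, medaka135 was the highest of 16 males in 22 members and the lowest of 16 in 9. Only the latter go against the pattern. The counts over 16 males were not taken over the genes at the level minimum, so that they cannot be read as particular to the members. Members at or above the lower of their mid-course medians numbered 64 in medaka127. They numbered 43 in medaka135, beside 42 in medaka129 and 47 in medaka130. Of the 4 males of 70 dpf, medaka135 was the lowest in 52 members (43.9% of the genes at the level minimum) and the highest in 30 (27.6%). Its values thus lay at the ends more often than between, as they also did over the genes at the level minimum. Its CD74 level and hormone share are given above. The spread among fish of 1 age was wider in the members than in the genes at the level minimum at all 4 ages: the median range on the log2 scale was 1.71 against 1.08 at 38 dpf, 0.89 against 0.69 at 57 dpf, 1.27 against 0.94 at 70 dpf and 0.89 against 0.65 at 134 dpf. The same values chose the members, and a rule on differences of medians of 4 fish can itself favour genes of wide spread.

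The highest score belonged to ENSORLG00000002383. In the males of 38 dpf it was at 33.5, 1.29, 0.717 and 0.872 CPM, the first being medaka125. It was at 8.84, 6.52, 2.67 and 7.28 CPM at 57 dpf and at 2.67, 5.69, 5.71 and 5.79 CPM at 70 dpf. It was at 0.732, 5.81, 1.47 and 1.03 CPM at 134 dpf, and the values under 2 CPM were 5 to 11 counts each. Its highest level of all was in a juvenile, so that the score rested on the 3 other juveniles, in each of which it was under 2 CPM. The second, ENSORLG00000001785, was at 3.20, 2.01, 29.9 and 7.30 CPM at 38 dpf, at 19.4, 8.09, 21.9 and 8.68 CPM at 57 dpf, at 10.4, 16.2, 9.68 and 16.3 CPM at 70 dpf and at 5.85, 5.24, 10.5 and 5.59 CPM at 134 dpf. Here too a juvenile, medaka127, was the highest of the 16 males.

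Higher in level was ENSORLG00000015485, the third by score. It was at 66.2, 102, 138 and 114 CPM at 57 dpf and at 117, 109, 32.2 and 138 CPM at 70 dpf, where medaka135 was the low fish. It was at 35.4, 61.3, 60.9 and 54.4 CPM at 134 dpf and at 25.5, 29.5, 193 and 42.6 CPM at 38 dpf, where medaka127 was the highest of all males. The member of highest level, ENSORLG00000023578, was at 1119, 755, 917 and 858 CPM at 57 dpf and at 825, 751, 1014 and 1256 CPM at 70 dpf. It was at 784, 544, 664 and 481 CPM at 134 dpf and at 615, 339, 1692 and 569 CPM at 38 dpf, so that the adult range overlapped the mid-course range and medaka127 again exceeded every other male.

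**Figure D2:**
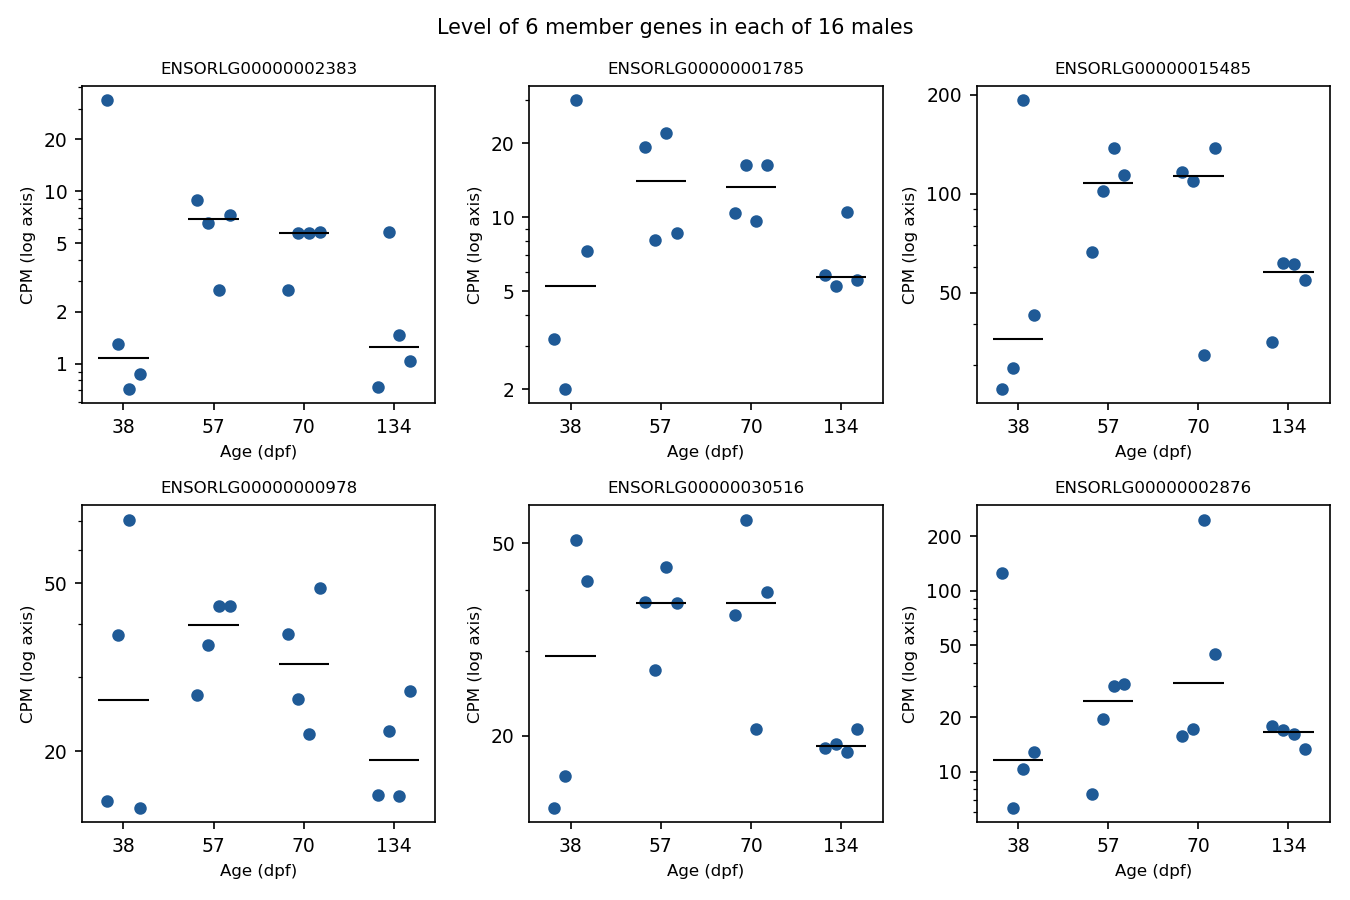
CPM (log axis) of 6 members in each of 16 males by age in dpf, with lines at the median of 4 fish. The medians at 57 and 70 dpf lie above those at 38 and 134 dpf by the rule, while 1 juvenile male lies above all mid-course males in ENSORLG00000002383 (33.5 CPM), ENSORLG00000001785 (29.9 CPM), ENSORLG00000015485 (193 CPM) and ENSORLG00000000978 (70.6 CPM).

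The 68 females took no part in the choice, and the question put to them was whether the same genes stood higher at mid-course. Over all members, the median of the group medians of log2(CPM + 1) was 4.22 at 32 to 35 dpf, 4.21 at 37 to 39 dpf, 4.44 at 44 to 49 dpf and 4.36 at 53 to 59 dpf. It was 4.47 at 64 to 74 dpf, 4.42 at 79 to 92 dpf and 4.30 at 96 to 111 dpf, and it was 4.20, 4.17 and 4.22 in the groups of 131 to 179, 249 to 277 and 375 dpf. The levels of the members thus lay highest from 44 to 92 dpf, with a maximum at 64 to 74 dpf, and the range over the groups was 0.29 on the log2 scale. The median over the genes at the level minimum was also highest at 64 to 74 dpf, at 4.98, with a range over the groups of 0.25. Relative to 37 to 39 dpf, the median member was 0.38 higher at 64 to 74 dpf and 0.13 lower at 131 to 179 dpf, while the median gene at the level minimum was 0.21 and 0.16 higher.

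Per fish, the mean over the members ranged from 4.21 to 4.81 (median 4.46) at 37 to 39 dpf. It ranged from 4.43 to 4.99 (median 4.71) at 53 to 59 dpf and from 4.09 to 5.02 (median 4.82) at 64 to 74 dpf. It ranged from 3.80 to 4.64 (median 4.34) at 131 to 179 dpf. Of the 19 mid-course females, 14 lay above all 6 females of 131 to 179 dpf and 8 above all 4 juvenile females. The overlap was wider on the juvenile side. Over the genes at the level minimum, the same mean ranged from 4.77 to 5.01 at 37 to 39 dpf and from 4.77 to 5.17 at 53 to 59 dpf. It ranged from 4.94 to 5.37 at 64 to 74 dpf and from 4.85 to 5.13 at 131 to 179 dpf. The group medians of this background were 4.92, 4.95, 5.13 and 5.07 in the same order. Some mid-course females thus lay above the juvenile and adult ranges in this background too, while the lowest, at 4.77, lay inside the juvenile range and below the adult range. The fish above these ranges were not counted in the background, so that the 14 and the 8 cannot be read as particular to the members.

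**Figure D3:**
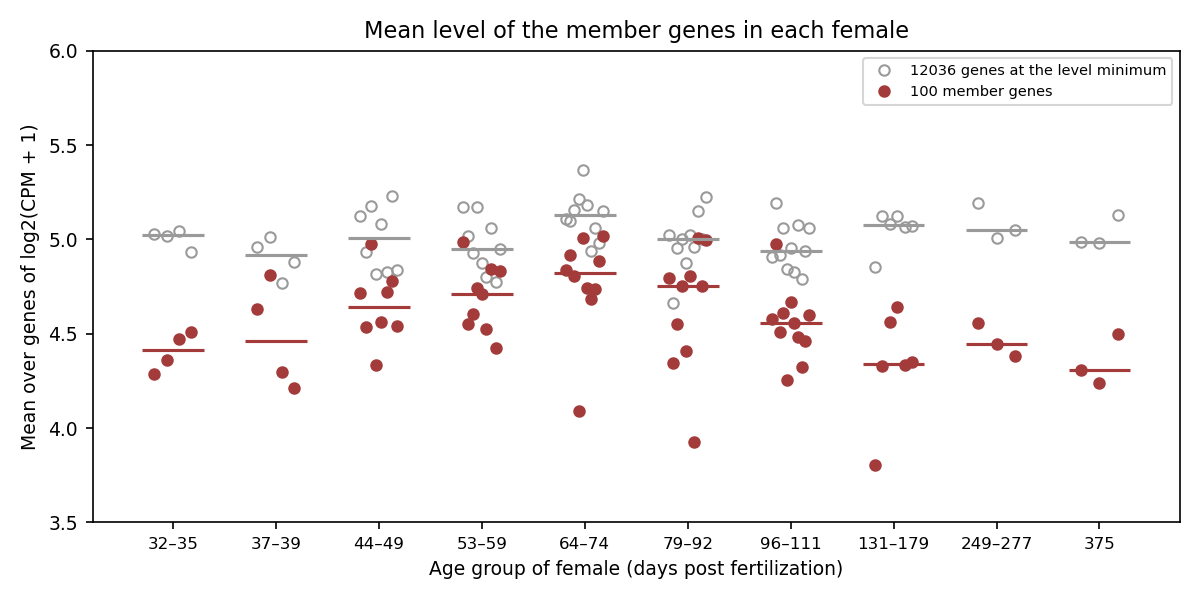
Mean of log2(CPM + 1) over the 100 members (filled) and over the 12036 genes at the level minimum (open) in each of 68 females by age group in dpf; lines are group medians. The members' group medians are 4.46 at 37 to 39 dpf, 4.82 at 64 to 74 dpf and 4.34 at 131 to 179 dpf; single low fish are at 4.09 (64 to 74 dpf), 3.92 (79 to 92 dpf) and 3.80 (131 to 179 dpf).

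Counted by group medians, 53 of the 100 members had both mid-course medians of the females above the juvenile and the adult (131 to 179 dpf) medians, against 27.0% of the genes at the level minimum. Both mid-course medians were above the adult median in 69 members, against 37.9%, and above the juvenile median in 66, against 56.8%. In 18 members they were above neither, against 32.2% of the genes at the level minimum. The age group of highest median was 64 to 74 dpf in 31 members (19.3% of the genes at the level minimum) and 79 to 92 dpf in 14 (3.91%). In 63 members it lay between 44 and 111 dpf, against 29.7%, and in 19 at 131 dpf or later, against 41.9%. Of the members, 94 also reached the level minimum of 5 CPM in the females of both mid-course groups.

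Against juvenile females no member passed the test. In edgeR's quasi-likelihood test, the contrast of the groups of 53 to 59 and 64 to 74 dpf with the 4 females of 37 to 39 dpf called 0 of 100 members higher and 0 lower at an adjusted p under 0.05, and 0 (0%) and 11 (0.0499%) of all 22034 genes tested. At an unadjusted p under 0.05, 6 members were higher and 1 lower, against 732 (3.32%) and 664 (3.01%) of all genes. DESeq2 also called 0 members in either direction, and 0.00844% and 0.0337% of the genes it tested. The median log2 change of the members was 0.11, against 0.02 over all genes and -0.01 over the genes at the level minimum, and 64 of 100 were positive, against 52.7% and 49.1%. The median standard error of a member's change was 0.29. In simulated data, with 100 genes changed 2-fold and 100 changed 4-fold, this contrast recovered 50% of the 2-fold changes and made 147 calls. The adjusted threshold is stricter where fewer genes are called, as in the fish, so that the 50% can be too high for them. Changes of 2-fold or smaller could therefore be missed. The members' median change was -0.01 with body length as a further term, with the RNA integrity number as a further term, and in the fish with a recorded number without that term, and without juvenile female 2 (medaka104) it was 0.27, so that its size depended on those choices.

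The juvenile females had RNA integrity numbers of 7.7 to 9.1, a globin sum of 6002 to 60952 CPM and lengths of 11 to 12.5 mm, against 8.3 to 10, 617 to 13173 CPM and 10 to 20 mm at mid-course, and the part of these differences was not tested beyond the fits just given. The juvenile females were themselves spread. For ENSORLG00000015485 they were at 54.7, 190, 54.7 and 58.9 CPM, the second being medaka104, against a mid-course range of 61.8 to 211 CPM (median 103 at 53 to 59 and 111 at 64 to 74 dpf). Its log2 change was 0.16 ± 0.34 (SE). For ENSORLG00000002383, the highest score in males, the juvenile females were at 128, 13.4, 2.45 and 9.01 CPM, the first being medaka103, and the mid-course females at 1.96 to 25.5 CPM. Its log2 change was -1.87 ± 0.51 (SE, edgeR adjusted p = 0.315), the lowest of all members. By medians the juvenile females were also higher, at 11.2 CPM against 8.58 and 7.93 CPM at mid-course, in the other direction than the male medians. By mean CPM the juvenile males, with medaka125 at 33.5 CPM, went the same way as the females. These male means were 9.11 CPM at 38 dpf, 6.33 CPM at 57 dpf and 4.97 CPM at 70 dpf.

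Against adult females, many members stood higher at mid-course. The contrast of the 19 mid-course females with the 6 of 131 to 179 dpf called 42 of 100 members higher and 4 lower (edgeR, adjusted p under 0.05). The same contrast called 8.67% of all 22034 genes higher and 8.45% lower, and 14.6% and 5.03% of the genes at the level minimum, so that the share of members called higher was above both backgrounds and the share called lower was not. The median log2 change was 0.58 over the members, against -0.05 over all genes and 0.11 over the genes at the level minimum, and 83 members were positive, against 46.1% and 61.5%. Among the 42, the changes ran from 0.58 to 1.99 with a median of 1.08, and 23 were at least 2-fold. Of the 42, 31 also had a positive change against juvenile females, none of which passed the test, beside 64 of all 100 members. Both contrasts use the same mid-course females, so that the 31 are no separate evidence of a peak.

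The calls did not follow the score: 12 fell among the 25 highest scores, 9 and 11 in the following groups of 25, and 10 among the 25 lowest. By level, 29 fell among the 50 members of higher level and 13 among the 50 of lower level, and of the genes at the level minimum 18.4% were called higher at or above the members' median level of 19.3 CPM and 9.53% below it. All 6 adult females lay below the mid-course median in 37 members, against 14.0% of the genes at the level minimum. The members below that median numbered 83 in medaka112, against 62.0% of the genes at the level minimum in that fish, and 75 in medaka114 (43.4%). They numbered 64 in medaka118 (46.7%), 61 in medaka119 (49.4%), 74 in medaka120 (47.2%) and 76 in medaka121 (47.6%). Each of the 6 fish was thus above its own background, by unequal amounts.

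**Figure D4:**
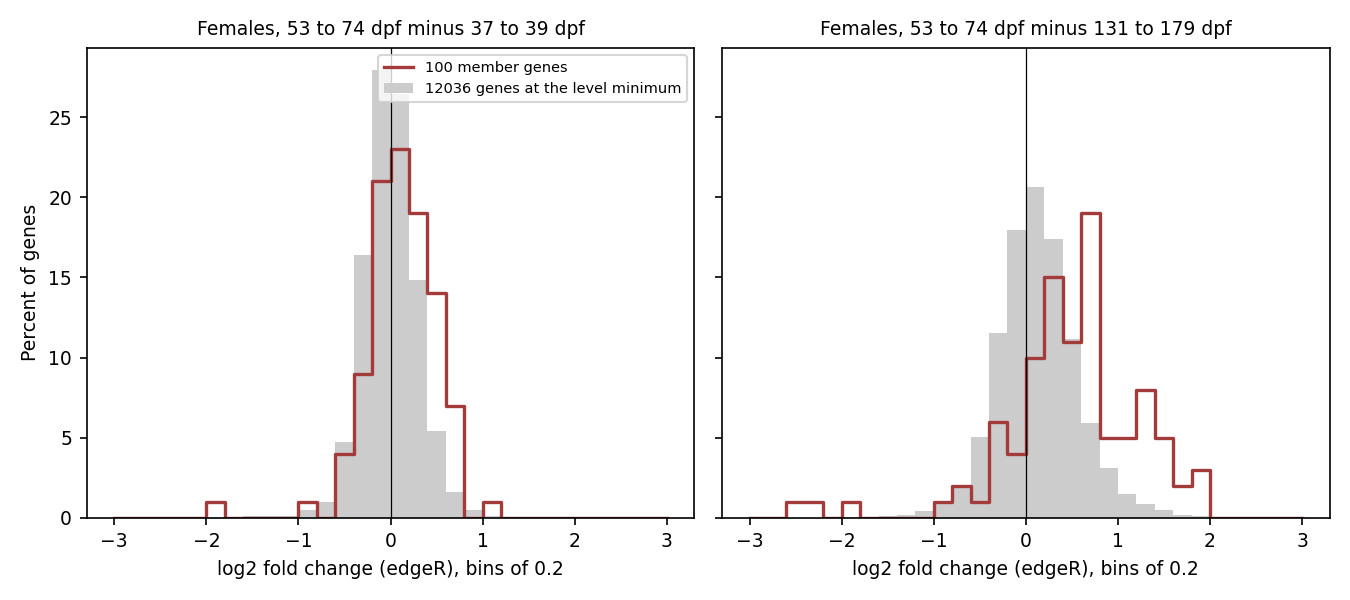
Distribution of the log2 fold change of the 100 members (line) and of the 12036 genes at the level minimum (bars) in females of 53 to 74 dpf against 37 to 39 dpf (left) and against 131 to 179 dpf (right), as percent of genes in bins of 0.2. The members' median is 0.11 on the left and 0.58 on the right; the genes at the level minimum have medians of -0.01 and 0.11.

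The smallest p belonged to ENSORLG00000000978. It was at 8.39, 11.8, 21.4, 25.0, 19.5 and 11.8 CPM in the 6 adult females, and at 24.6 to 64.6 CPM (median 37.1) at 53 to 59 dpf and 26.4 to 93.0 CPM (median 41.6) at 64 to 74 dpf. Only 1 adult fish reached the lowest mid-course fish, and the log2 change was 1.49 ± 0.23 (SE, edgeR adjusted p = 1.22e-06). In juveniles of 37 to 39 dpf it was at 27.2, 61.6, 21.3 and 28.2 CPM, and at 32 to 35 dpf at 23.9 to 74.1 CPM. Both groups overlapped the mid-course range, and the lowest fish of each lay just below it. After 74 dpf its group medians were 33.3 CPM at 79 to 92 dpf, 25.4 CPM at 96 to 111 dpf, 15.7 CPM at 131 to 179 dpf, 15.4 CPM at 249 to 277 dpf and 15.2 CPM at 375 dpf. In males it was at 14.7 to 70.6 CPM at 38 dpf, 22.0 to 48.6 CPM at mid-course and 15.7 to 27.7 CPM at 134 dpf.

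The next, ENSORLG00000030516, was at 17.0, 29.4, 21.6, 17.8, 17.1 and 18.2 CPM in the adult females. It was at 35.1 to 52.3 CPM (median 48.5) at 53 to 59 dpf and at 25.5 to 60.8 CPM (median 49.2) at 64 to 74 dpf, and the log2 change was 1.35 ± 0.22 (SE, edgeR adjusted p = 6.89e-06). The juvenile females of 37 to 39 dpf were as high, at 40.7 to 66.9 CPM, while those of 32 to 35 dpf were at 8.33 to 45.5 CPM. In males of 134 dpf it was at 18.9, 19.3, 18.5 and 20.7 CPM, all below 7 of the 8 mid-course males, the other being medaka135 at 20.6 CPM.

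ENSORLG00000014222 was the only member in which all 19 mid-course females stood above all 6 adult females, as did 0.208% of the genes at the level minimum. It ranged from 166 to 737 CPM at mid-course and from 77.9 to 99.9 CPM at 131 to 179 dpf. Its group medians were 301 CPM at 37 to 39 dpf, 363 at 44 to 49 dpf, 301 and 309 at mid-course, 287 at 79 to 92 dpf, 173 at 96 to 111 dpf and 64.7 at 375 dpf. In males the medians were 229, 322, 299 and 139 CPM at the 4 ages, with medaka127 the highest of the juveniles at 724 CPM and medaka135 the lowest at 70 dpf at 82.3 CPM.

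The third by score, ENSORLG00000015485, was at 23.6, 37.2, 75.5, 40.9, 47.8 and 55.5 CPM in the adult females, with 1 fish inside the mid-course range of 61.8 to 211 CPM. The log2 change was 1.40 ± 0.31 (SE, edgeR adjusted p = 0.00107). It had the highest female score of all members, with both mid-course medians at least 0.84 above the juvenile and adult medians on the log2 scale. The 2 highest male scores also passed, at 1.59 ± 0.57 (SE, edgeR adjusted p = 0.0415) for ENSORLG00000002383 and 1.40 ± 0.39 (adjusted p = 0.00801) for ENSORLG00000001785. The first was no longer called under 10 of the alternatives (adjusted p of 0.0518 to 0.209, log2 changes of 1.30 to 1.88), among them the fits without each of 4 adult females. The second was lost with the RNA integrity number as a term (1.19, adjusted p = 0.0721), in the fish with a recorded number without that term (1.19, 0.0675) and with the females of 58 and 59 dpf alone as the younger mid-course group (1.07, 0.0697).

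**Figure D5:**
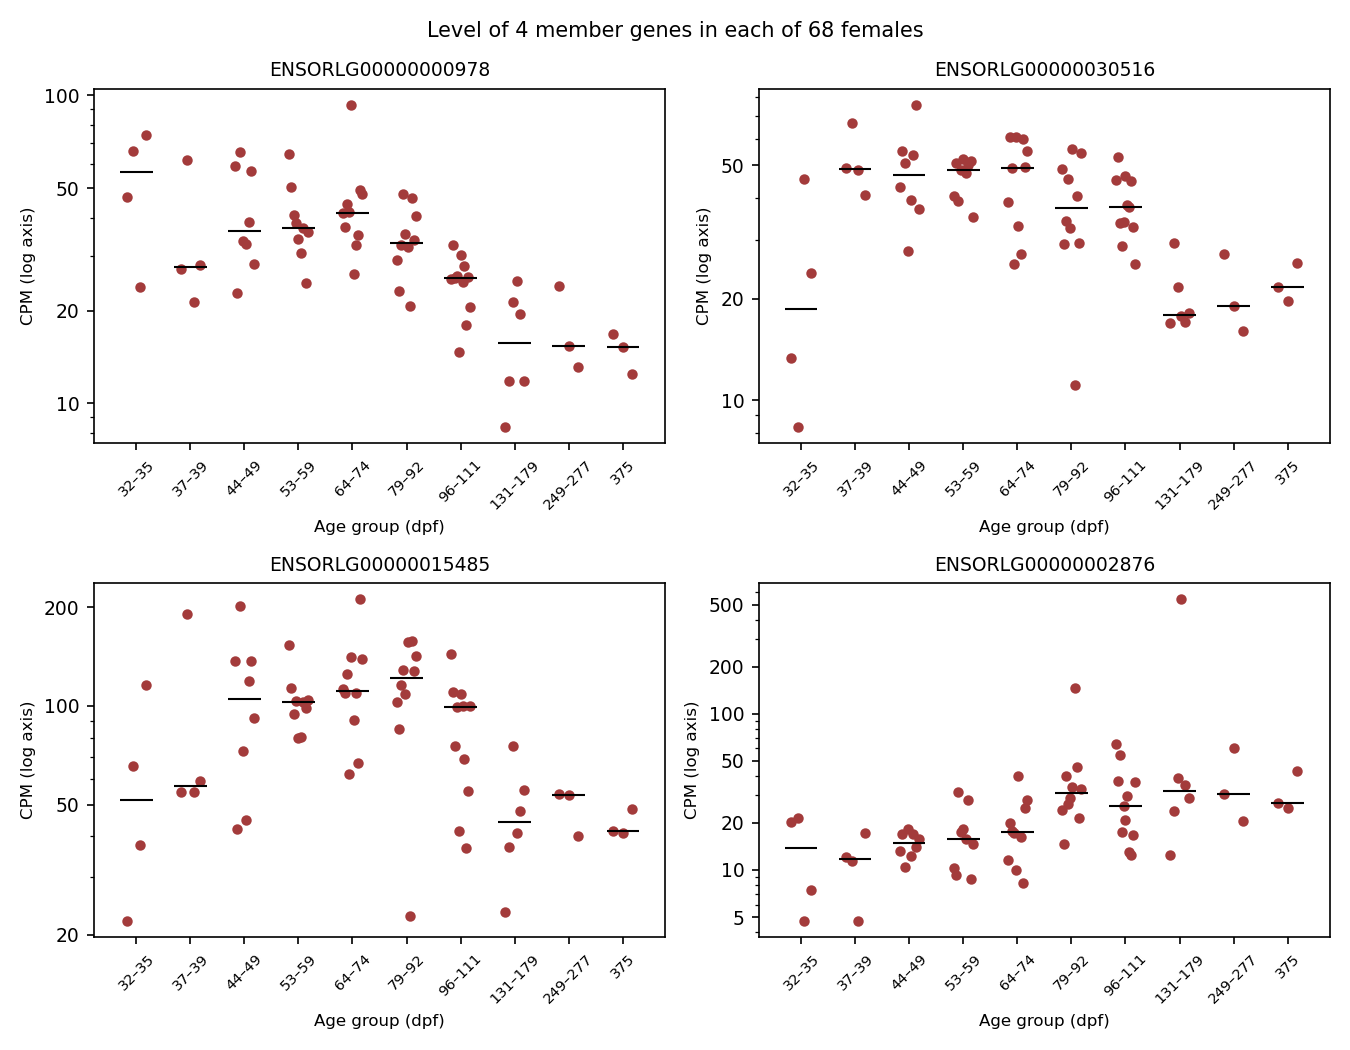
CPM (log axis) of 4 members in each of 68 females by age group in dpf, with lines at the group medians. ENSORLG00000000978, ENSORLG00000030516 and ENSORLG00000015485 lie lower from 131 dpf on (adult medians of 15.7, 18.0 and 44.4 CPM), and ENSORLG00000002876 has 1 adult fish at 540 CPM.

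The calls of 4 members as lower at mid-course rested on 1 adult female, medaka119. ENSORLG00000002876 was at 12.5, 23.7, 38.9, 540, 34.9 and 29.0 CPM in the adult females, the fourth being medaka119, and at 8.28 to 40.0 CPM at mid-course. Its log2 change was -2.51 ± 0.41 (SE, edgeR adjusted p = 1.27e-05), and -0.42 (0.473) without that fish. ENSORLG00000005631 was at 0.714, 5.21, 1.84, 196, 6.30 and 5.51 CPM, its change was -2.40 ± 0.45 (adjusted p = 0.000107), and without the fish it was 0.87 in the other direction (0.123). ENSORLG00000001579 and ENSORLG00000012015 were at 56.1 and 91.9 CPM in medaka119 and at 5.53 to 15.0 and 23.2 to 32.9 CPM in the other 5. By medians the adults were also higher in ENSORLG00000002876, at 31.9 CPM against 15.9 and 17.5 CPM in the mid-course groups. The same held for ENSORLG00000001579 (13.5 against 8.50 and 8.70) and ENSORLG00000012015 (26.1 against 19.1 and 20.0). For ENSORLG00000005631 the adult median of 5.36 CPM lay between 4.87 and 9.35. Without medaka119, 0 members were called lower and 40 were called higher, against 4.55% and 7.68% of all genes, which with it were 8.45% and 8.67%.

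The first of these members was also high in some other libraries of low hormone share, while the others were so less evenly. In all 84 fish, ENSORLG00000002876 was highest in medaka119 (540 CPM, hormone share 10.8%), medaka135 (247 CPM, 9.00%), medaka7 (145 CPM, 1.48%) and medaka125 (126 CPM, 12.9%). These were 4 of the 6 libraries of lowest hormone share, and in the other 2, medaka126 and medaka26, it was at 6.33 and 17.2 CPM. Outside these 6 libraries it did not exceed 64.4 CPM. Counted from the highest of the 84 fish, ENSORLG00000012015 was at place 8 in medaka135. It was at places 82, 84, 74 and 78 in medaka7, medaka126, medaka26 and medaka125. ENSORLG00000005631 was at places 2, 9 and 5 in medaka7, medaka135 and medaka26, and at 71 and 68 in medaka126 and medaka125. ENSORLG00000001579 was at places 2, 4 and 22 in medaka135, medaka7 and medaka125, and at 66 and 82 in medaka26 and medaka126. CD74 was at 6436, 2203 and 1137 CPM in medaka135, medaka7 and medaka125 but at 306 CPM in medaka119, the lowest of the adult females. The RNA integrity number of medaka119 was 8, against 9.6 to 9.8 in the other adult females with a recorded number. The part of cell mixture and RNA quality in these values was not tested beyond the fits given next.

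Cell mixture and RNA quality also differed between the female groups compared. The hormone genes took 9.06% to 32.8% of the counts at mid-course and 10.8% to 22.3% at 131 to 179 dpf, CD74 was at 243 to 763 CPM and at 306 to 1550 CPM, and the globin sum at 617 to 13173 CPM and at 928 to 18040 CPM. RNA integrity numbers were recorded for 57 of 68 females and were 8.3 to 10 at mid-course and 8.0 to 9.8 in the adults. In those 57 fish, without a term for the number, 26 members were higher and 4 lower with a median change of 0.43, against 4.50% and 5.04% of all genes. With the number as a term, 26 were again higher and 4 lower with a median change of 0.46, against 4.26% and 4.46%, so that the count was lower than 42 in these fish with or without the term. Without medaka7 and medaka26, the females of lowest hormone share, 43 were higher and 4 lower, against 11.0% and 8.72%. With body length as a term, 42 were higher and 3 lower (6.63% and 6.27% of all genes), the median change was 0.82 and 87 were positive. The adult females were 21 to 23.5 mm long and the mid-course females 10 to 20 mm, so that this fit extends the slope of length across a gap, and age and length cannot be told apart in this contrast.

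Among females of 64 to 111 dpf, fish of 1 age group differed in length, from 10 to 20 mm over 31 fish. In edgeR's test of the slope on length within age groups, 7 members rose with length and 0 fell, against 2.55% and 5.91% of all 20923 genes and 4.05% and 6.39% of the genes at the level minimum. The median slope over the members was 0.05 log2 units per mm, against -0.0008 over all genes and 0.003 over the genes at the level minimum. A positive slope was found in 79 members, against 49.4% and 52.8%. Unadjusted, 34 had a positive and 1 a negative slope at p under 0.05, against 9.26% and 13.4% of all genes. The 7 slopes ran from 0.09 to 0.17 per mm. The smallest p was that of ENSORLG00000011417, at 0.14 ± 0.04 per mm (SE, adjusted p = 0.0131), followed by ENSORLG00000015485 at 0.13 ± 0.04 (0.0207), and ENSORLG00000023578 was also called at 0.11 ± 0.04 (0.0387). Of the 7, 4 were also called higher at mid-course than in adults, beside 42 of all 100 members. This overlap was not counted over all genes. DESeq2 called 19 members higher and 1 lower with length, against 4.00% and 6.16% of all genes. In the 27 of 31 fish with a recorded RNA integrity number, 7 members rose and 0 fell, against 2.10% and 5.06% of all genes, and with that number as a further term 1 rose and 0 fell, against 0.395% and 2.09%. The count of single genes thus depended on the test and on that term, while the number of positive slopes was 75 to 79 of 100 in all fits run. All of these fits held medaka26 (10 mm) and medaka7 (10.5 mm), the females of lowest hormone share. Their members' means, 4.09 and 3.92, were the lowest of their age groups. Other short fish were medaka67 (10.5 mm) at 4.32 and medaka27 (11 mm) at 5.01. How far the slopes rest on medaka26 and medaka7 was not tested.

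In the males length rose with age, from 12 to 12.5 mm at 38 dpf over 16 to 18.5 mm at 57 dpf and 17.5 to 18.5 mm at 70 dpf to 22 to 28 mm at 134 dpf. Length was not separable from age in them. The 4 juvenile males differed by 0.5 mm, and medaka127 was as long as medaka125.

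The RNA integrity number itself was tested in the 57 females within age groups. No member was called in either direction by edgeR, against 0.109% of all genes with a positive and 0.770% with a negative slope. At an unadjusted p under 0.05, 15 members had a positive and 7 a negative slope, against 3.55% and 9.00% of all genes, and DESeq2 called 4 and 1, against 0.368% and 1.35%. The median slope over the members was 0.05 log2 units per unit of the number, against -0.03 over all genes and -0.02 over the genes at the level minimum. Of the members 63 were positive, against 41.2% and 45.2%. With body length as a further term the members' median slope was -0.0005, 50 were positive, and 11 had a positive and 11 a negative slope at an unadjusted p under 0.05, against 2.34% and 6.43% of all genes.

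The sexes are set beside each other at matched ages. The choice of members favours higher female than male values at the outer ages and lower ones at mid-course. The members were selected for low outer and high mid-course medians in males. At 37 to 39 dpf the female median of a member was 0.52 above the male median (median over the members), with 93 of 100 higher in females, against 0.01 and 50.8% of the genes at the level minimum. At mid-course the difference was 0.04 (58 of 100) for the younger groups and 0.19 (65 of 100) for the older, against 0.17 (69.9%) and 0.38 (80.7%) over the genes at the level minimum. In adults it was 0.44 (76 of 100), against 0.23 (79.5%), so that the difference was above and the share below that of the genes at the level minimum. These are descriptions with no test, since 1 side of each difference chose the members.

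Among themselves the members moved together only loosely. Over the 68 females with age group means removed, the median Spearman correlation over the 4950 pairs of members was 0.16, against 0.10 over all pairs of genes at the level minimum, 6.51% of the pairs were over 0.5, against 4.50%, and 21.3% were below 0. These correlations share library, depth and cell mixture across the fish. The members' median correlation with the share of hormone genes was -0.13, against -0.27 for the genes at the level minimum, and that with the number of genes detected at equal depth was 0.19 for both. In medaka7, of lowest hormone share, the members' mean was 3.92, against 4.41 to 4.81 in the other 3 females of 79 dpf, and it was the lowest of these 4 fish in 52 members (33.8% of the genes at the level minimum).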

How the data were processed

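Single pituitaries of 84 fish (68 females, 16 males) were measured. For each, the authors amplified cDNA with the Smart-SEQ HT kit, made Nextera XT libraries, sequenced them on an Illumina NovaSeq and mapped them to the Ensembl Hd-rR assembly, to which corrected gene models and the GFP transgene had been added. The table they deposited holds raw whole-number counts of reads per gene. STAR 2.7.6a, SAMtools 1.10 and HTSeq 0.11.2 are named in the submitters' processing notes. How HTSeq treated strand and overlapping genes in these libraries is not given in the sources used here, and overlapping, antisense and near-identical genes cannot be told apart. Libraries held 2424546 to 9348785 counts (median 6493890). PCR reads were counted without molecular identifiers, so that depth overstates the number of molecules.

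CPM were computed on the total of each library. The members and the gene lists were chosen with earlier results of these data known. Members were selected on log2(CPM + 1) in the males, and tests used females: the robust quasi-likelihood test of edgeR 4.0.16 (R 4.3.3), with the filterByExpr filter, TMM factors and p-values adjusted by Benjamini-Hochberg over all genes tested (threshold 0.05), with 10 age groups in 1 fit for the age contrasts, and age group plus a slope for body length (31 females) and for the RNA integrity number (57 females with a recorded number). Standard errors were derived from the F statistic. The fits were tested on simulated data with 100 genes changed 2-fold and 100 changed 4-fold, which gave 116 to 165 calls. Other numbers of genes were called in the fish, and the adjusted threshold depends on that number, so that recovery in them can differ. The juvenile contrast recovered 50% of 2-fold and 91% of 4-fold changes, and the adult contrast 63% and 97%. For 2-fold changes over the range of the term, the length slope recovered 36% and the integrity number slope 25%. For 4-fold changes they recovered 90% and 88%. Of the calls, 2.59% to 4.08% were false. The replicate was the single fish. Comparisons between fish of different ages cannot separate age from rearing batch or tank, which the labels do not give.

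Alternatives were DESeq2 1.42.0, other size factors, other filters, other fish, and length or integrity number as terms, and for the selection another scaling, pseudocount (5), summary or level minimum (10 CPM) and each male left out. Chosen after seeing the data were the fits without each adult female, without medaka7 and medaka26, of only the fish with a recorded integrity number, with the number of genes detected at equal depth (2424546 counts), and the selections without medaka127, medaka135 or medaka140 in pairs. Identifiers were to be printed for the 2 highest scores and for the first 2 members called in each direction in the age contrasts, as no table paired identifiers with symbols. Tables and plots used Python 3.11.15, numpy 2.4.6, pandas 2.3.3, scipy 1.17.1 and matplotlib 3.10.9.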

Additional observations from a re-analysis of the deposited data

Results flagged for a closer look

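In 25 of 143 sets of values (the members' mean and 12 members in groups of 4 to 10 fish), 1 fish stood apart from the rest of its group by Dixon's criterion. Chance marks about 1 in 20 independent groups of normally distributed values, while the 12 members were taken in CPM without logs. These sets also share fish, several members were named after their values were seen, and the male values chose the members. The count is therefore not compared with that share. Of the members' mean of log2(CPM + 1), medaka26 was low at 64 to 74 dpf (4.09, others 4.68 to 5.02) and medaka112 at 131 to 179 dpf (3.80, others 4.33 to 4.64).

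In males of 38 dpf, medaka125 was high in ENSORLG00000002383 (33.5 CPM, others 0.717 to 1.29) and ENSORLG00000002876 (126 CPM, others 6.33 to 13.0), and medaka127 in ENSORLG00000015485 (193 CPM, others 25.5 to 42.6). At 70 dpf, medaka133 was low in ENSORLG00000002383 (2.67 CPM, others 5.69 to 5.79), and medaka135 was high in ENSORLG00000002876 (247 CPM, others 15.8 to 45.0) and ENSORLG00000001579 (42.5 CPM, others 8.06 to 12.2). At 134 dpf, medaka138 was high in ENSORLG00000002383 (5.81 CPM, others 0.732 to 1.47) and ENSORLG00000001579 (9.77 CPM, others 4.97 to 5.46), and medaka139 in ENSORLG00000001785 (10.5 CPM, others 5.24 to 5.85) and ENSORLG00000011417 (35.7 CPM, others 18.6 to 21.1).

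In females, ENSORLG00000002383 was high in medaka110 at 32 to 35 dpf (33.1 CPM, others 3.39 to 7.90) and in medaka103 at 37 to 39 dpf (128 CPM, others 2.45 to 13.4). ENSORLG00000015485 was high in medaka104 at 37 to 39 dpf (190 CPM, others 54.7 to 58.9), medaka100 at 53 to 59 dpf (153 CPM, others 79.9 to 114) and medaka82 at 64 to 74 dpf (211 CPM, others 61.8 to 141). ENSORLG00000023578 was high in medaka32 at 44 to 49 dpf (1182 CPM, others 523 to 734) and ENSORLG00000000978 in medaka27 at 64 to 74 dpf (93.0 CPM, others 26.4 to 49.3). In medaka7 (79 to 92 dpf) ENSORLG00000002876 was at 145 CPM (others 14.7 to 45.4) and ENSORLG00000005631 at 16.9 CPM (others 0.835 to 9.01). In medaka119 (131 to 179 dpf) ENSORLG00000002876 was at 540 CPM (others 12.5 to 38.9), ENSORLG00000005631 at 196 CPM (others 0.714 to 6.30), ENSORLG00000001579 at 56.1 CPM (others 5.53 to 15.0) and ENSORLG00000012015 at 91.9 CPM (others 23.2 to 32.9).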

How the results depend on the processing

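The choice of members depended on the scaling and on single males. Of the 100, 66 stayed among the 100 highest scores with TMM-scaled CPM, 65 with the hormone genes out of the totals and 51 with the mean in place of the median. With each male left out in turn, 60 to 81 stayed, the fewest without juvenile male 2 (medaka126); 61 stayed without medaka135 and medaka140 and 56 without medaka127 and medaka135. All 100 kept a score above 0 with TMM-scaled CPM, and 93 with the mean.

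In females, 26 members were higher than in adults with the RNA integrity number as a term (4.26% of all genes). They were 26 in the same 57 fish without that term (4.50%) and 42 in all 68 (8.67%). The other alternatives called 29 to 43 (DESeq2 42, beside 1939 of 23705 genes). The fit with 29 called 1090 of 22004 genes higher, and that with 43 called 2427 of 22045. The fits with each adult female left out called 32 to 40 higher and 0 to 4 lower. The fit with 32 called 1347 of 22022 genes higher, and those with 40 called 1643 of 22053 and 1692 of 22042. The fit with 0 called 1003 genes lower, and those with 4 called 1453 to 1706. With length, DESeq2 called 19 higher and 1 lower (4.00% and 6.16% of all genes) in place of 7 and 0 (2.55% and 5.91%). With the integrity number as a term, in 27 of the 31 fish, 1 was called higher (0.395%), against 7 in these 27 without the term (2.10%). For the integrity number itself, 4 higher and 1 lower were called by DESeq2 (0.368% and 1.35% of all genes), in place of 0 and 0 (0.109% and 0.770%). With DESeq2's size factors in edgeR 1 was called higher, beside 25 of 22089 genes. With each adult female left out, the log2 change of ENSORLG00000005631 ran from -2.66 to 0.87, the latter without medaka119. The cause of these shifts was not tested, beside the smaller number of fish in fits that leave fish out. Members at the lower end of the levels have few counts in the shallowest libraries, which limits what single fish show. No paired analysis was possible because each pituitary is of another fish. The labels give no replicate numbers, and those used follow the order of the samples.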
